A study of Homo sapiens with 15 samples.

Results

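The integrins, the laminins and the genes of the hemidesmosome and its anchoring fibrils were followed in SCC13 cells, a human line of cutaneous squamous cell carcinoma, with and without transfected TLR4, the receptor for lipopolysaccharide (LPS). The set held 36 genes: 22 integrin chains, 10 laminin chains, the hemidesmosome genes COL17A1, DST and PLEC, and COL7A1. The members were all probes whose accession now belongs to 1 of these genes, and they were chosen by name, with earlier results of these data known. They came to 49 of the 50599 probes, and 36 of the 20503 genes, that could be followed on the arrays.

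SCC13-TLR4 cells carried the plasmid pUNO-TLR4GFP, which encodes TLR4 fused to green fluorescent protein, and SCC13-pUNO cells carried the empty plasmid. After selection with blasticidin, SCC13-TLR4 cells with strong fluorescence were sorted, and the empty plasmid gave no such signal to sort by. Total RNA was hybridised to 1-colour Agilent arrays, 1 sample per array, and 15 arrays were analysed. Without LPS there were 4 arrays for SCC13-pUNO and 3 for SCC13-TLR4, and after 24 h in 10 μg/ml ultrapure LPS there were 4 for either line. Replicates were parallel cultures of 1 transfected line, and p-values measure the spread between the arrays of these cultures only. Unless slide is in the model, that spread also holds differences between the slides described below.

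Integrins are receptors made of an α and a β chain that tie a cell to the matrix outside it and to the cytoskeleton inside. Laminins are trimers of an α, a β and a γ chain and are a main constituent of the basement membrane on which basal keratinocytes sit. In the hemidesmosome, the integrin of the α6 chain (ITGA6) and the β4 chain (ITGB4) and the transmembrane collagen XVII (COL17A1) bind the laminin outside the cell, and plectin (PLEC) and the bullous pemphigoid antigen dystonin (DST) link them to keratin filaments. Collagen VII (COL7A1) forms the fibrils that anchor the basement membrane in the dermis.

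To show the DNA before 2 of these genes, RefSeq promoter windows (GRCh38.p14) were searched on both strands over the 250 bases before the start. The letters TGANTCA, a site of the transcription factor AP-1, occurred before LAMA3 and LAMB3, which encode an α and a β chain of the epidermal laminin, and the 3 matches are shown with 10 bases on each side and the match in capitals. They lie at chr18:23872885-23872911 and chr18:23872941-23872967 (plus strand) and at chr1:209651425-209651451 (minus strand), each before the start that RefSeq gives for the window. LAMB3 has several starts, and its match precedes the one farthest downstream, so it lies within the gene as counted from the others.
LAMA3, first match: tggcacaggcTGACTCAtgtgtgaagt
LAMA3, the second match: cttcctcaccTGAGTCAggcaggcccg
LAMB3: tcagccactcTGACTCAttcactttgg
A window was given for 27 of the 36 genes, with 36 windows in all. The AP-1 letters stood in 5.56% of these windows and in 6.57% of all 35116 promoter windows. Letters of the kappaB site of NF-kB, a factor that TLR4 signalling is known to activate, stood in 9 of the 36 windows, belonging to COL7A1, ITGA1, ITGA5, ITGA10, ITGA11, ITGB1, ITGB8 and LAMB3, that is in 25% of them, and in 9.96% of all windows. Some of the LAMB3 windows overlap and share their matches, and matches of the 2 motifs overlapped in 0 windows. The genes without a window were ITGA3, ITGA7, ITGA9, ITGB2, ITGB3, ITGB4, LAMA1, LAMC3 and PLEC.

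All levels below are log2 intensities set against their array's 75th percentile, so that 0 is the intensity below which 75% of the spots lie and 1 unit is a doubling. That percentile was between 192 and 420 intensity units, and an array had from 47.1% to 56.2% of its spots well above background. The brighter TLR4 probe was between 2.84 and 3.19 on the SCC13-TLR4 arrays. On the SCC13-pUNO arrays it was between -6.40 and -3.80, except for the array labelled untreated SCC13-pUNO replicate 2. That array was at 3.04 and against its label, as judged by the brighter probe alone. A fainter TLR4 probe, between -6.63 and -4.96, was not well above background on any array of either line. The arrays lay on 2 slides. Slide 1 held replicates 1 to 3 of untreated SCC13-pUNO, replicate 1 of untreated SCC13-TLR4 and replicates 1 and 2 of both LPS-treated groups, and slide 2 held the other 7 arrays. The main counts, and the values of several genes, are therefore given also with slide in the model and without the array that goes against its label. Of 6 keratinocyte markers, KRT5, KRT14, TP63, SFN and CDH1 were well above background on all 15 arrays and KRT6A on 7. Of the fibroblast markers, 0 of 6 could be tested, and DCN, LUM, COL1A2, COL3A1 and PDGFRB were well above background on 0 arrays and COL1A1 on 6. The leukocyte marker PTPRC, the endothelial markers PECAM1, CDH5 and VWF and the melanocyte marker PMEL gave a signal that could be tested, while CD3E was well above background on 8 arrays, ITGAM on 7, TYR on 4, MLANA on 2, ITGAL and DCT on 1, and ITGAX and KDR on 0. KRT14 differed most between the lines among these markers, by 1.28 (SE 0.26, limma adjusted p = 0.227). With slide in the model and without the array that goes against its label, KRT14, a keratin of basal keratinocytes, was higher in SCC13-TLR4 cells by 1.56 (limma adjusted p = 0.00019), and its part in the values of the members was not tested.

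Of the 36 genes, 27 could be tested, with 32 probes, because in at least 1 group a probe was well above background on all arrays. For 26 of them that held on all 15 arrays, and for ITGA11 on 13. The other 9 genes could not be tested. ITGA2, the α chain of a collagen receptor of keratinocytes, ITGA8, the leukocyte chain ITGB2 and ITGB3 were well above background on 0 arrays. ITGA4 reached 1 array, the laminin chains LAMA1, LAMA4 and LAMC3 no more than 2, and ITGB8 reached 7. On such arrays the values give a bound only, and a probe that binds poorly cannot be told apart from a low level of RNA.

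The hemidesmosome integrin was measured at closely similar levels in all groups. ITGA6 was at 2.29, 2.35, 2.27 and 2.60 in untreated SCC13-pUNO cells and at 2.29, 2.66 and 2.71 in SCC13-TLR4 cells, without treatment. Under LPS it was at 2.33, 2.23, 2.65 and 2.72 in SCC13-pUNO cells and at 2.40, 2.29, 2.60 and 2.70 in SCC13-TLR4 cells. Within each group the values near 2.3 came from slide 1 and the higher ones from slide 2, and the lines overlapped. Averaged over the treatments, the lines differed by 0.10 (SE 0.11, 95% interval -0.14 to 0.33, limma adjusted p = 0.996).

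ITGB4 was at 7.28, 7.15, 7.16 and 6.97 in untreated SCC13-pUNO cells and at 7.08, 6.96 and 6.96 in untreated SCC13-TLR4 cells. With LPS its values were 7.14, 7.13, 7.34 and 6.96 in SCC13-pUNO cells and 7.18, 7.37, 7.01 and 6.65 in SCC13-TLR4 cells. The groups overlapped, and the averaged line difference was -0.12 (SE 0.11, 95% interval -0.34 to 0.11, limma adjusted p = 0.996).

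COL17A1, the transmembrane collagen of the hemidesmosome, fell into separate ranges by slide and not by line or treatment. Untreated SCC13-pUNO cells were at -1.85, -2.34 and -2.01 on slide 1 and at 0.43 on slide 2. Untreated SCC13-TLR4 cells were at -2.48 on slide 1 and at 0.36 and 0.42 on slide 2. With LPS, SCC13-pUNO cells were at -2.32 and -2.70 on slide 1 and at 0.78 and 0.61 on slide 2, and SCC13-TLR4 cells were at -2.13 and -2.58 on slide 1 and at 0.46 and 0.12 on slide 2. All 8 arrays of slide 1 were thus below all 7 arrays of slide 2, in each of the 4 groups. The fitted slide difference, slide 2 minus slide 1 at equal group, was 2.82 (SE 0.13, limma adjusted p = 7.22e-09). The averaged line difference of 0.38 (SE 0.75, limma adjusted p = 0.996) had an interval from -1.25 to 2.00, and it turned to -0.21 with slide in the model and to -0.24 (SE 0.13, limma adjusted p = 0.502) with slide and without the array that goes against its label.

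**Figure D1:**
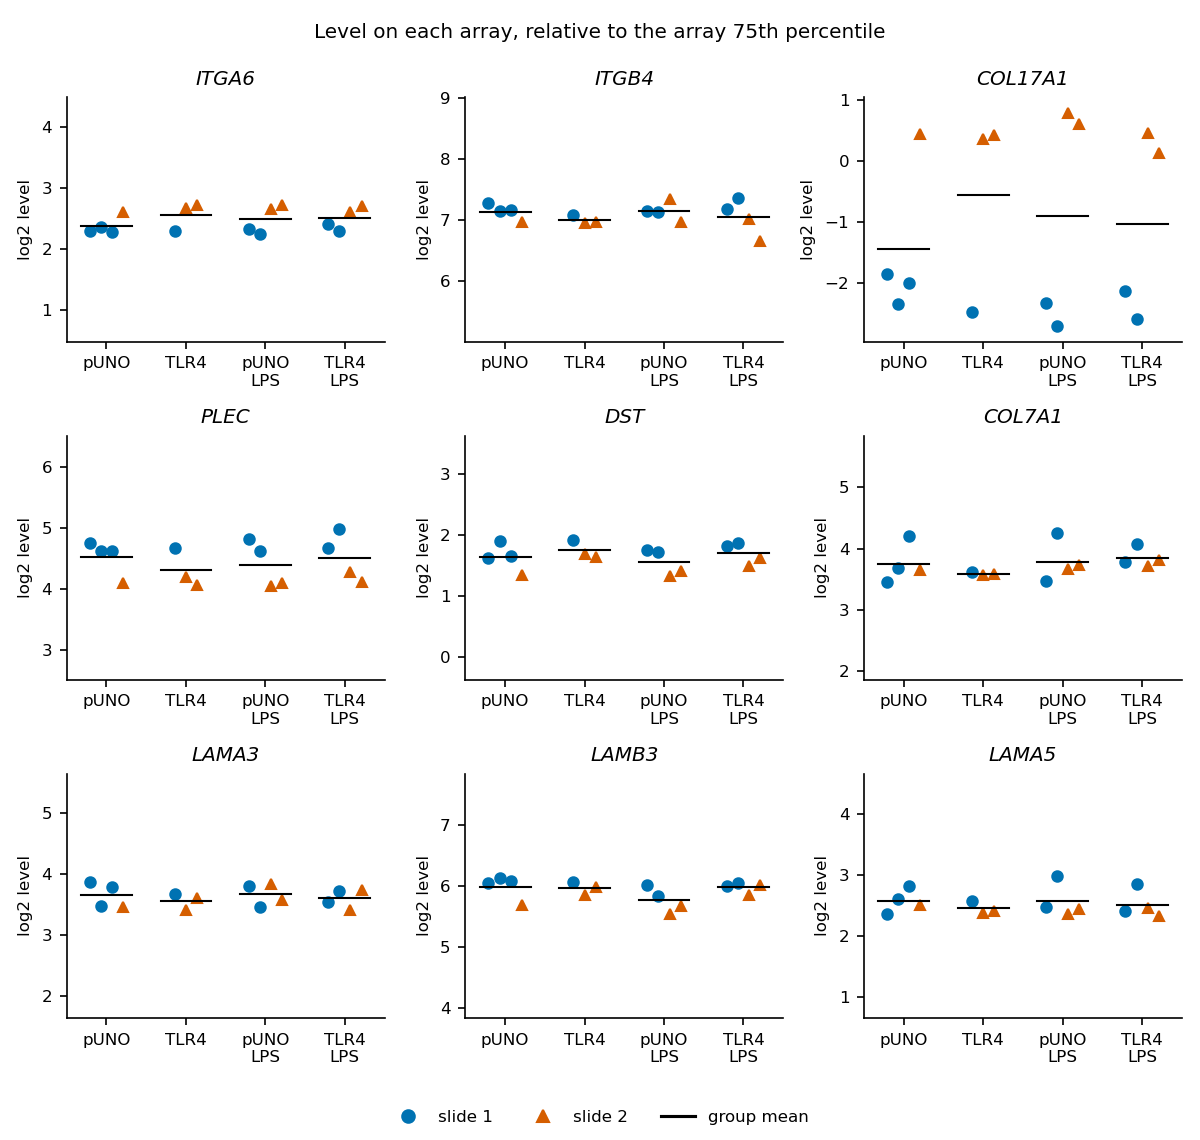
Log2 level relative to each array's 75th percentile (vertical axis, 4 log2 units in each panel, each panel with its own range) on every array, for the 4 groups of untreated and LPS-treated SCC13-pUNO and SCC13-TLR4 cells; blue circles are arrays of slide 1, orange triangles arrays of slide 2, and black lines group means. The lines overlap within each treatment in all 9 panels. For COL7A1, untreated SCC13-TLR4 arrays (3.57 to 3.62) lie below the LPS-treated ones (3.72 to 4.08). COL17A1 lies between -2.70 and -1.85 on slide 1 and between 0.12 and 0.78 on slide 2.

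The genes of the cytoplasmic plaque, PLEC and DST, also had probes that differed between the slides, as 51.8% of all tested probes did. The brighter PLEC probe was between 4.61 and 4.97 on slide 1 and between 4.04 and 4.27 on slide 2, and the slides did not overlap (slide difference -0.60, SE 0.06, limma adjusted p = 1.47e-05). Its averaged line difference was -0.05 (SE 0.17, limma adjusted p = 0.996), and 0.07 with slide in the model and without the array that goes against its label. The fainter PLEC probe spread from -3.05 to -0.58, and on it the slides overlapped (slide difference -0.57, SE 0.35, limma adjusted p = 0.189).

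The brightest DST probe was at 1.62, 1.90, 1.66 and 1.35 in untreated SCC13-pUNO cells and at 1.91, 1.69 and 1.64 in SCC13-TLR4 cells, without treatment. Under LPS it was at 1.76, 1.71, 1.33 and 1.40 in SCC13-pUNO cells and at 1.81, 1.86, 1.49 and 1.63 in SCC13-TLR4 cells. SCC13-TLR4 cells were the higher ones in 21 of 28 pairs of arrays of equal treatment, with overlapping groups, and the averaged difference was 0.13 (SE 0.11, limma adjusted p = 0.996). With slide in the model and without the array that goes against its label it was 0.23 (SE 0.05), and its limma adjusted p of 0.115 was the lowest of any member in that fit. All 3 DST probes had a positive line difference, from 0.07 to 0.13.

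COL7A1, the anchoring fibril collagen, ranged from 3.45 to 4.25, and its 2 highest arrays, at 4.21 and 4.25, were of SCC13-pUNO cells without and with LPS. Untreated SCC13-TLR4 cells, at 3.57 to 3.62, were all below LPS-treated SCC13-TLR4 cells, at 3.72 to 4.08. Probes with such a separation were not counted over all tested probes. The averaged line difference of COL7A1 was -0.04 (SE 0.13, limma adjusted p = 0.996).

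Among the laminins, LAMA3 and LAMB3, whose AP-1 letters are shown above, did not pass the test. LAMA3 was between 3.45 and 3.87 in untreated SCC13-pUNO cells, between 3.40 and 3.66 in untreated SCC13-TLR4 cells, and between 3.40 and 3.83 with LPS. LAMB3 was at 6.02, 5.84, 5.54 and 5.68 in LPS-treated SCC13-pUNO cells and between 5.86 and 6.06 in LPS-treated SCC13-TLR4 cells. The lines overlapped through the first of these SCC13-pUNO arrays, and SCC13-TLR4 cells were higher in 14 of 16 pairs. The difference with LPS was 0.21 (SE 0.13, limma adjusted p = 1.00; exact permutation test, two-sided p = 0.0857). Averaged over the treatments, LAMB3 differed by 0.10 (SE 0.09) and LAMA3 by -0.08 (SE 0.10).

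The laminin chain LAMA2, which is known mainly from muscle, had the most negative line difference of the members. In untreated cells it was at -2.77, -2.90, -2.71 and -2.93 in SCC13-pUNO and at -3.04, -3.33 and -2.97 in SCC13-TLR4. With LPS it was at -2.84, -2.52, -2.95 and -2.96 in SCC13-pUNO and at -2.94, -3.54, -3.76 and -3.05 in SCC13-TLR4. All 3 untreated SCC13-TLR4 arrays were below all 4 untreated SCC13-pUNO arrays, and with LPS only replicate 1 of SCC13-TLR4 overlapped the other line. The averaged difference was -0.40 (SE 0.13, 95% interval -0.68 to -0.12), with a limma unadjusted p of 0.00834 and a limma adjusted p of 0.996. The two-sided exact permutation test over 2450 splits gave p = 0.00122, which is the lowest of the 32 probes and was not adjusted for their number. Slide 1 alone gave -0.40 and slide 2 alone -0.34, and the value was -0.41 without the array that goes against its label. LAMA2 lay far below the 75th percentile on every array. The untreated lines were apart for ITGA9 as well, at -1.89 to -1.54 in SCC13-pUNO and -2.02 to -1.90 in SCC13-TLR4. Probes with such a separation were not counted over all tested probes.

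The other laminin chains were close between the lines. LAMB1, a β chain of many tissues, was the higher in SCC13-TLR4 cells in only 3 of 28 pairs (difference -0.15, SE 0.07, limma adjusted p = 0.996; exact permutation test, unadjusted p = 0.0241), with -0.02 on slide 1 and -0.23 on slide 2. LAMA5, an α chain of epithelial basement membranes, differed by -0.09, LAMC1, the most widespread γ chain, by 0.06, and the brighter LAMB2 probe by -0.08. None of these passed the test, and their standard errors were between 0.07 and 0.12.

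The β1 integrin chain and its partners did not pass the test. ITGB1, the common β chain of the matrix receptors, ranged from 1.81 to 3.01 over the 15 arrays and differed by 0.03 (SE 0.20). ITGA3, which pairs with it as a laminin receptor of keratinocytes, ranged from 2.75 to 3.56 and differed by 0.06 (SE 0.14). ITGA5, the α chain of the fibronectin receptor, ranged from -0.22 to 0.74 and differed by 0.07 (SE 0.14). Without the array that goes against its label the differences were 0.11 for ITGB1, 0.10 for ITGA3 and 0.07 for ITGA5, and with slide in the model as well they were 0.19, 0.16 and 0.14, with standard errors of 0.15, 0.09 and 0.09. All 3 genes were lower on slide 2 than on slide 1 (slide differences -0.52, -0.38 and -0.41, limma adjusted p = 0.0132, 0.00364 and 0.00141).

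The αv integrins also differed little between the lines. ITGAV, the αv chain, was between 2.16 and 2.65 on all arrays, with a line difference of -0.14 (SE 0.08), which was 0.06 on slide 1 and -0.29 on slide 2. Its β partners ITGB5 and ITGB6, the second of which is known from wounded and malignant epithelium, differed by 0.01 (SE 0.11) and -0.12 (SE 0.12), and ITGB6 by 0.17 on slide 1 and -0.33 on slide 2. ITGB8, another β partner, was between -3.06 and -1.71 on slide 2 and well above background on 7 of 7 arrays there. On slide 1 it was well above background on 0 of 8 arrays, at measured values of -6.51 to -4.20. It was at least 4.36-fold higher on slide 2 than the bound set on each slide 1 array by the faintest signal well above background, or by the probe's own value where that was higher. Slide 2 held arrays of all 4 groups, so for ITGB8 as for COL17A1 every group contained arrays of both kinds.

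Of the remaining integrins, the collagen receptor chain ITGA10 was higher in SCC13-TLR4 cells in only 6 of 28 pairs. It was at -2.05, -2.12, -2.06 and -2.50 in untreated SCC13-pUNO cells and at -2.45, -2.46 and -2.57 in SCC13-TLR4 cells, without treatment. Under LPS it was at -1.92, -2.17, -1.98 and -1.83 in SCC13-pUNO cells and at -1.89, -2.09, -2.38 and -2.47 in SCC13-TLR4 cells. The lines overlapped in both treatments, and the averaged difference was -0.27 (SE 0.11, limma unadjusted p = 0.0233, adjusted p = 0.996). ITGAE, known from T cells of epithelia, differed by 0.11 (SE 0.07; exact permutation test, unadjusted p = 0.029). ITGA11, another collagen receptor chain, was between -4.34 and -2.34 on 14 arrays and at -6.68 on the array of untreated SCC13-TLR4 replicate 1. Its line difference of -0.29 (SE 0.52) was 0.35 without that array. ITGA9, a tenascin receptor chain, differed by -0.25 (SE 0.14), ITGA7, a laminin receptor chain of muscle, by -0.12 (SE 0.12), ITGA1, a collagen receptor chain, by -0.09 (SE 0.10), ITGA2B, the platelet chain, by 0.08 (SE 0.14) and ITGB7, the partner of ITGAE, by -0.01 (SE 0.27), all with a limma adjusted p of 0.996 or above.

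Across the whole set, no member passed the test of a difference between the lines. At an adjusted p under 0.05, 0 of the 32 member probes passed in the comparison of the untreated lines, where 0% of all 22685 tested probes passed, and 0 of 32 passed with LPS, also against 0%. Averaged over treatment, 0 of 32 passed, against 0.022% of all probes. At an unadjusted p under 0.05, 0 member probes passed in untreated cells (2.5% of all probes), 1 with LPS, LAMA2 (2.72%), and 2 in the average, LAMA2 and ITGA10 (4.33%), all of them lower in SCC13-TLR4 cells. In the exact permutation test of the average, 4 of the 32 member probes had an unadjusted p under 0.05. That test was not run over all probes, so its usual share is not known. The median of the averaged differences was -0.05 over the members and -0.01 over all tested probes, and 26 of the 32 lay within 0.2 of 0. The 95% interval stayed within 1 log2 unit of 0, a doubling or halving, for 29 of the 32 probes, and within 0.5 for 25. The 3 probes with wider intervals were those of COL17A1 and ITGA11 and the fainter PLEC probe.

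With slide in the model and without the array that goes against its label, 8 of 32 member probes had an unadjusted p under 0.05, against 11.2% of all probes. The brighter 2 DST probes, LAMB3 and LAMC1 were higher in SCC13-TLR4 cells, by 0.15 to 0.23, and LAMA2, ITGA10, ITGA7 and LAMB1 were lower, by 0.15 to 0.38. At an adjusted p under 0.05, 0 of 32 passed in that fit, against 0.216% of all probes.

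**Figure D2:**
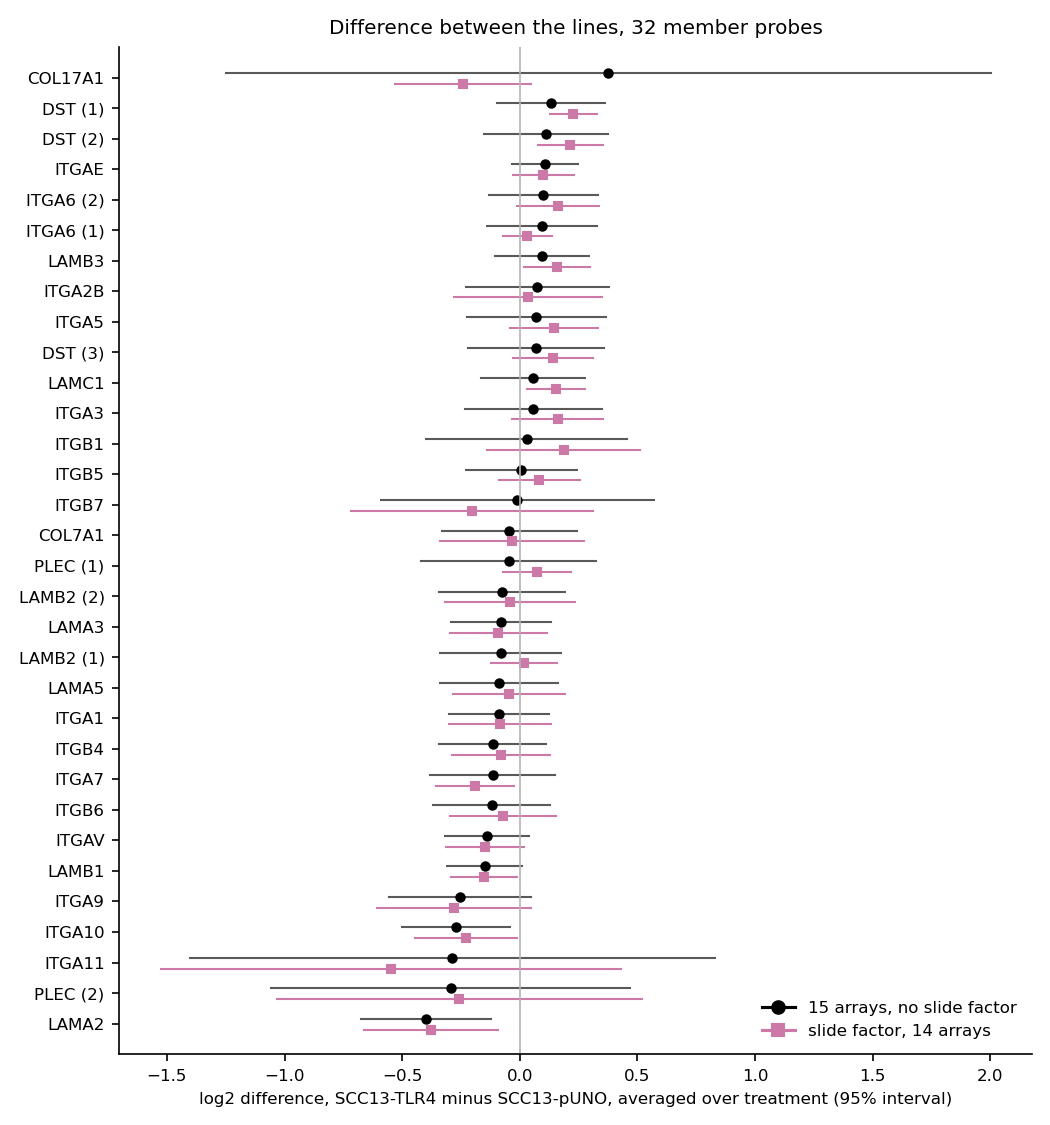
Log2 difference between the lines, SCC13-TLR4 minus SCC13-pUNO, averaged over treatment (horizontal axis) for the 32 tested member probes, numbered where a gene has several; black circles are the fit of 15 arrays without slide, pink squares the fit of 14 arrays with slide and without the array that goes against its label, and lines are 95% intervals. LAMA2 is lowest at -0.40, and COL17A1 moves from 0.38 to -0.24 as its interval narrows.

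No member passed the test of a response to 24 h of LPS in either line. In SCC13-pUNO cells, 0 of 32 probes passed at an adjusted p under 0.05 (0% of all probes) and 0 at an unadjusted p under 0.05 (2.48%). In SCC13-TLR4 cells, 0 passed at either level (0% and 1.33%). The response of SCC13-TLR4 cells minus that of SCC13-pUNO cells passed for 0 probes at either level (0% and 1.32%). The median response was 0.01 in SCC13-pUNO cells and 0.02 in SCC13-TLR4 cells, with 27 and 24 of the 32 probes within 0.2 of 0. The 2 widest responses in SCC13-TLR4 cells were those of ITGA11, at 1.03, which was -0.24 without the array at -6.68, and the fainter PLEC probe, at 0.63. COL17A1 was at 0.53 in SCC13-pUNO cells and -0.47 in SCC13-TLR4 cells, where the groups compared held slide 1 and slide 2 arrays in different shares. The comparisons of the lines and of LPS share groups of arrays, so their values are not independent of each other.

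**Figure D3:**
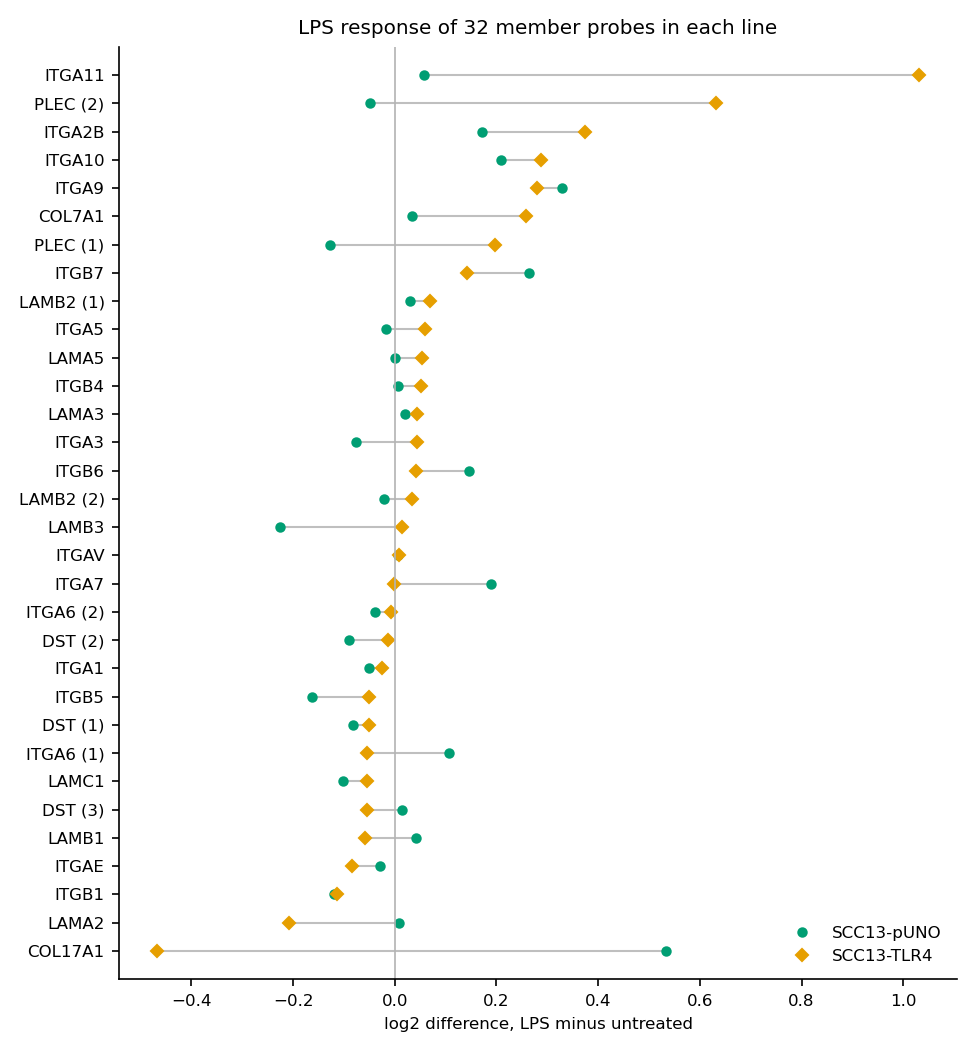
Log2 difference of LPS-treated minus untreated cells (horizontal axis) for the 32 member probes, as green circles in SCC13-pUNO cells and orange diamonds in SCC13-TLR4 cells, joined by a grey line and ordered by the value in SCC13-TLR4 cells. Most probes lie within 0.2 of 0 in both lines, and ITGA11 at 1.03 and COL17A1 at -0.47 are the ends of the SCC13-TLR4 values.

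The slide was the factor with the widest differences among the members. At an adjusted p under 0.05, 16 of the 32 member probes differed between slide 2 and slide 1, 4 higher and 12 lower on slide 2, and 51.8% of all tested probes did. The share was thus close to that of all probes. The median slide difference was -0.20 over the members and -0.13 over all probes. COL17A1, ITGA11, ITGA7 and the brighter ITGA6 probe were the ones higher on slide 2. The ITGA11 difference of 1.30 (SE 0.42) included the slide 1 arrays at -6.68 and -4.34, which were not well above background. The 2 ITGA6 probes went opposite ways, at 0.35 (SE 0.05) and -0.28 (SE 0.08). The median size of the slide difference, without its sign, was 0.26 over the members and 0.28 over all probes. The slides did not overlap for the COL17A1 probe and the brighter ITGA6 probe (higher on slide 2). Nor did they for the brighter probes of LAMB2 and PLEC and the fainter 2 probes of DST (lower). Probes without overlap were not counted over all tested probes, so their usual share is not known. For the median member probe, slide took 33.0% of the variance between arrays, the line 5.27% and LPS 2.24%. Slide took more than the 4 groups for 24 of 32 probes. These variance shares were computed for the members only. The slides held different cultures, so a difference between cultures and one between hybridisations cannot be told apart.

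**Figure D4:**
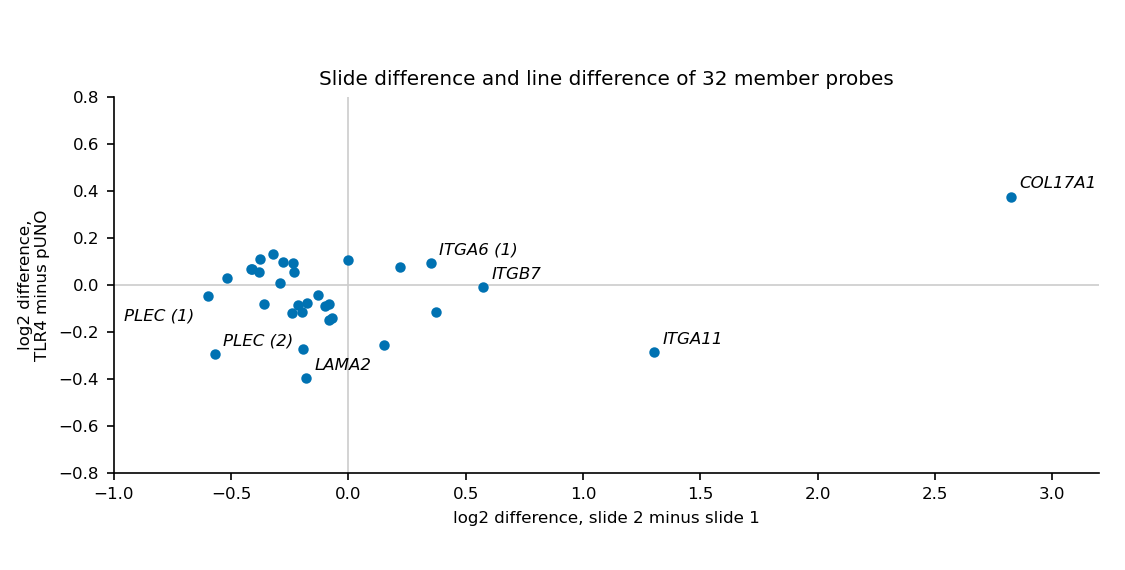
Log2 difference between slides, slide 2 minus slide 1 at equal group (horizontal axis), against the averaged log2 difference between the lines, SCC13-TLR4 minus SCC13-pUNO (vertical axis, same scale), for the 32 member probes. COL17A1 stands apart at 2.82 along the slide axis, whereas all line differences lie between -0.40 and 0.38.

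Other genes of matrix adhesion were counted by the same rule for the averaged line difference. Of 23 adaptors and kinases that couple integrins to actin, such as talin (TLN1), vinculin (VCL), integrin-linked kinase (ILK) and focal adhesion kinase (PTK2), 22 could be tested, 0 passed at an adjusted p under 0.05, and 3 had an unadjusted p under 0.05 (4.33% of all probes did), each of them lower in SCC13-TLR4 cells. These were the kindlin FERMT2 at -0.30 (SE 0.09), paxillin (PXN) at -0.17 (SE 0.07) and SHARPIN, an inhibitor of integrin activation, at -0.34 (SE 0.13). With slide in the model and without the array that goes against its label, 8 of the 22 had an unadjusted p under 0.05, against 11.2% of all probes, and 0 passed at an adjusted p under 0.05. In that fit TLN1, LIMS2, ILK and ACTN4 were higher in SCC13-TLR4 cells, by 0.18 to 0.36, and FERMT2, PXN, SHARPIN and BCAR1 were lower, at -0.30 to -0.14. Of 8 membrane partners, such as the tetraspanin CD151 and the syndecans SDC1 and SDC4, 7 could be tested, and 0 passed at either level, with differences from -0.03 to 0.07. Of 15 matrix ligands, 10 could be tested, and 0 passed at either level, with differences from -0.23 for the collagen IV chain COL4A1 to 0.53 for vitronectin (VTN), whose probe was well above background on 9 arrays. Fibronectin (FN1) was well above background on 0 arrays.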

How the data were processed

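The authors scanned 1-colour Agilent arrays, and per the file headers each deposited intensity came from Feature Extraction 10.7.3.1, with background subtraction and detrending and with no normalization between arrays. Of 62976 spots, 58717 were not control spots. Each log2 intensity was reduced by the 75th percentile (log2) of its array, outlier-marked spots were dropped, and repeated spots were averaged. A probe counted as well above background where at least 50% of its spots were so marked. Accessions were named from a RefSeq table (GRCh38.p14), a newer build than that of the array's design, and 8 members had several probes.

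Tested were 22685 probes, those above background throughout at least 1 group. The limma package (3.58.1, under R 4.3.3) fitted 1 mean for each group, with Benjamini-Hochberg adjustment. It was also tried on simulated data, which held no slide effect. Exact permutation tests, two-sided, were added for single member probes (smallest p 0.0286 with 4 arrays against 3). They took no account of slide and were not adjusted for the number of probes. Genes were read from the brightest tested probe. Those described singly were chosen by role (18) or as the 8 largest averaged line differences, 22 in all, and ITGA1, ITGA2B, ITGA7, ITGAE, ITGB7 and ITGB8 were added after their values had been seen. The members and lists were chosen with earlier results of these data known. Groups came from the labels. Deviations of same-numbered arrays correlated by 0.383 to 0.616 between the LPS-treated groups, where each pair shared a slide, and were not all above 0.1 between any other groups.

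Alternatives included normexp background correction (offset 50), quantile normalization, other filters, outlier-marked spots kept, a replicate block, slide as a factor, array weights, a mean over probes, and each array left out. The slide comparison was added after the data had been seen. Scripts used Python 3.11.15 with numpy 2.4.6, pandas 2.3.3, scipy 1.17.1 and matplotlib 3.10.9.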

Additional observations from a re-analysis of the deposited data

Results flagged for a closer look

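Among 66 groups of 4 arrays examined, 1 held an array far from the other 3, where chance gives about 1 in 20 groups, or 3.3. ITGA10 was at -2.50 in untreated SCC13-pUNO replicate 4, and the other 3 arrays of that group were between -2.12 and -2.05. That array was the only 1 of its group on slide 2, and the part of the slide in this value was not tested.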

How the results depend on the processing

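In the 6 comparisons of lines and LPS, the count of member probes past an adjusted p of 0.05 was 0 under every alternative that was run and with each array left out. The member probe nearest to it had a limma adjusted p of 0.058, between the untreated lines with a weight for each array. The count between slides was 16, between 15 and 18 with each array left out, and 10 with the replicate block.

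The averaged line differences of named genes passed the test under no alternative, and 17 of 219 values under other settings and 21 of 330 with an array left out changed sign. With slide as a factor COL17A1 turned to -0.21 and PLEC to 0.079, and when the array that goes against its label was left out too, they were at -0.24 and 0.071 and LAMB2 at 0.017. With a weight for each array ITGA3 was at -0.029, ITGA5 at -0.022, ITGA11 at 0.26, ITGB1 at -0.079, ITGB5 at -0.054 and LAMC1 at -0.017. With the replicate block ITGB1 was at -0.0087 and ITGB5 at -0.011. With normexp ITGB5 was at -0.028 and PLEC at 0.0069, and with quantile normalization COL7A1 was at 0.00056 and PLEC at 0.0017. With an array left out, the difference ranged from -0.0051 to 0.13 for ITGA3, from -0.011 to 0.15 for ITGA5, from -0.64 to 0.35 for ITGA11, from -0.076 to 0.13 for ITGB1, from -0.051 to 0.049 for ITGB5, from -0.097 to 0.034 for COL7A1 and from -0.13 to 0.024 for PLEC. The cause was not tested.

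Over all probes, the averaged comparison of the lines called 5 probes. It called 22 with slide, 49 with slide and without the array that goes against its label, 23 without that array alone, 2 without the filter, and 0 with quantile normalization, outlier-marked spots kept, the filter on all 15 arrays, the replicate block or array weights. Without slide and with a different array left out it called 0 to 2. In untreated cells the count of 0 became 11, and with LPS 22, with slide and without that array, and 8 in untreated cells with array weights. Deviations of same-numbered arrays correlated between -0.54 and 0.62, above 0.1 in the pairs on 1 slide and below 0 in the others. The replicate block changed no call of a member between lines or with LPS. The number of arrays limits all intervals, and near the background, as for ITGA11, intensity limits the fold change.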
